A study of Mus musculus with 12 samples.

Results

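Interferon-stimulated genes are genes whose transcription is known to be raised when a cell responds to an interferon. The 39 genes described here were chosen by symbol, and all 39 were found in both deposited tables of liver transcript levels, among 41743 genes. Of these, 30 were classed as type I response genes and 7 as interferon-gamma GTPases, while Irf1 and Tap1 were placed in neither class. Levels are given as TPM, a share of all transcripts corrected for transcript length, which sums to the same total in every liver. A change was computed where 3 or more of the 12 livers had 1 TPM or more, a rule met by 12159 genes and by all 39 members. None of the members met it through 1 group alone, and 38 of them, all but Oas3, reached 1 TPM in all 12 livers.

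Interferons are secreted proteins that bind receptors on the cell surface. Type I interferons (alpha and beta) signal through the kinases JAK1 and TYK2 to a complex that includes STAT2 and IRF9, which binds a promoter element called ISRE and switches on antiviral genes of the IFIT, OAS and ISG15 families. Interferon-gamma, made mainly by T and NK cells, acts on a different element, GAS, and is the classical inducer of the guanylate-binding proteins (GBP) and immunity-related GTPases (IRG), which attack compartments that hold intracellular pathogens. In liver, hepatocytes, Kupffer cells and endothelial cells can all respond to interferons.

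The samples were whole livers of 12 female mice aged 3 to 4 months, in 4 groups of 3. YAPKO mice, on a C57BL/6 background, had floxed Yap1 deleted by Foxa3-Cre and, per the study's methods, carried a ROSA-stop-EYFP reporter. Their controls, WT (C57BL/6), were wild-type littermates. YAPKO TAZHET mice, on a mixed C57BL/6-FVB background, lacked Yap1 in the same cells and were heterozygous for Wwtr1, the gene of TAZ, and their controls, WT (mixed), were wild-type littermates. YAP and TAZ are transcriptional coactivators of the Hippo pathway. Foxa3-Cre acts in the foregut endoderm, from which hepatocytes and bile duct cells arise, and whole liver also holds leukocytes and vessels that do not. The animals were F3 offspring of backcrosses. Each model was compared with its own littermates and no control was shared, so TAZ heterozygosity could not be told apart from background or from the set of animals. The labels name individual mice but do not say which were processed together.

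In WT livers Yap1 was between 28.2 and 33.2 TPM, against 1.67 to 3.72 TPM in YAPKO and 8.63 to 11.5 TPM in YAPKO TAZHET livers. Wwtr1 was between 6.26 and 8.38 TPM in WT livers, between 13.3 and 16.7 TPM in YAPKO and between 11.5 and 14.1 TPM in YAPKO TAZHET livers. Its mean was 6.455 TPM in WT (C57BL/6) and 14.54 TPM in YAPKO, and 8.114 TPM in WT (mixed) and 12.45 TPM in YAPKO TAZHET. The part of the lost copy in the smaller rise was not tested. Hepatocyte markers were abundant in every liver, with a summed level of 69160 TPM or more over 5 genes. TPM keeps no record of sequencing depth, so the number of reads counted in each liver is not known from the deposited values.

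Members were called in both directions in each model. In YAPKO livers 9 of 39 members, 23.1%, differed from the WT littermates (limma, Benjamini-Hochberg adjusted p under 0.05 over all genes tested), against 36.0% of all genes tested. Oasl1, Oas1g, Irf7 and Zbp1 rose, where 18.7% of all genes rose, and Igtp, Gbp3, Gbp7, Iigp1 and Ifi35 fell, where 17.3% of all genes fell. In YAPKO TAZHET livers 13 of 39 members, 33.3%, differed, against 37.7% of all genes. Oasl1, Oas1a, Ifi47, Oas1g, Ifi27l2a and Trim30a rose (19.2% of all genes) and Ifit1, Gbp3, Ifit3b, Isg15, Ifit3, Bst2 and Ifi27 fell (18.4% of all genes). Oasl1 and Oas1g rose in both models, as did 14.9% of all genes, and Gbp3 fell in both, as did 12.4% of all genes. The median log2 fold change of the members was 0.03 in YAPKO and 0.13 in YAPKO TAZHET, beside -0.03 for all genes in each. The 3 mice of each group did not overlap with their littermates for 4 members that were higher and 5 that were lower in YAPKO (25.1% and 25.7% of all genes), and for 7 higher and 7 lower in YAPKO TAZHET (24.8% and 27.0%).

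The split between higher and lower depended on how the libraries were scaled to each other. The values above follow scaling by a trimmed mean of log ratios. On the TPM as deposited, with no further scaling, 9 members were called higher and 2 lower in YAPKO (36.9% and 7.02% of all genes), and 12 higher and 1 lower in YAPKO TAZHET (34.5% and 7.36%). Members called higher in this way but not after scaling were Ifih1, Oas1a, Usp18, Cmpk2 and Ifi27l2a in YAPKO and Irf7, Ifih1, Zbp1, Oas2, Usp18 and Xaf1 in YAPKO TAZHET. The median log2 fold change of all genes was then 0.28 and 0.25. The lower calls that remained without scaling were Igtp and Gbp7 in YAPKO and Ifit1 in YAPKO TAZHET. Quantile normalization gave 2 higher and 3 lower in YAPKO (17.2% and 17.8% of all genes) and 5 higher and 4 lower in YAPKO TAZHET (17.9% and 18.6%). Over the 14 alternative settings tried, the calls kept under all of them were those of Oasl1, Igtp and Gbp7 in YAPKO and of Oasl1, Oas1g and Ifit1 in YAPKO TAZHET. The other calls were each lost under some of them, and the losses named below do not cover every such setting.

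**Figure D1:**
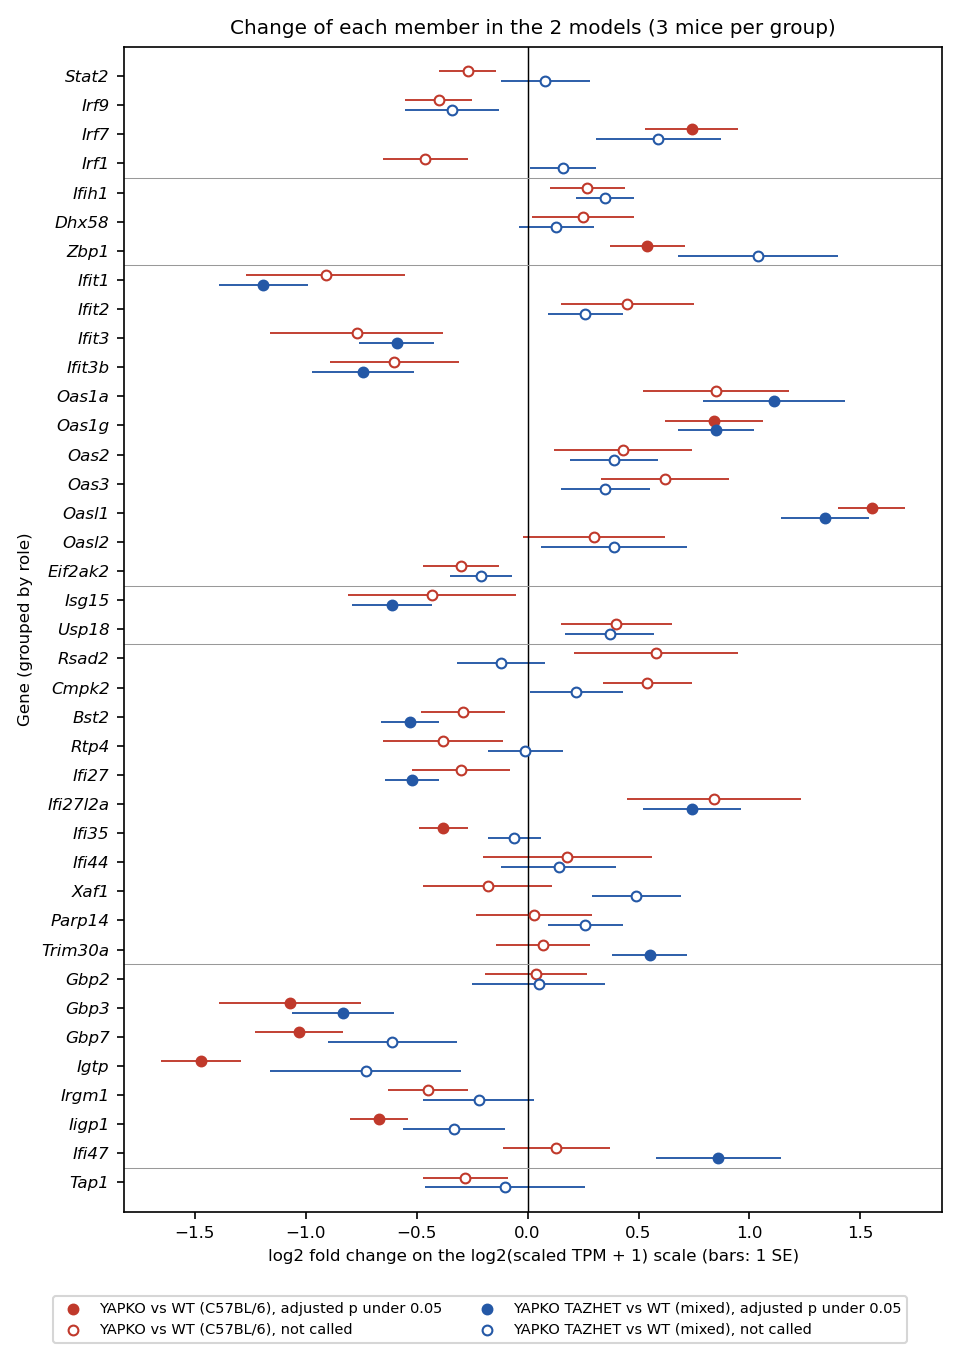
Log2 fold change on the log2(scaled TPM + 1) scale (x axis) of the 39 members (y axis, grouped by role) in YAPKO (red) and YAPKO TAZHET (blue) livers against 3 WT littermates each. Bars are 1 SE and filled points passed an adjusted p of 0.05. The 2 models lie on the same side of 0 for 35 of 39 members, beside 10271 of all 12159 genes tested. Oasl1 is farthest to the right in both.

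A short element, the core of the ISRE, was found in promoters of members that rose and of members that fell. Promoter windows, the 250 bases before each RefSeq gene start (GRCm38.p6), were at hand for 30 of the 39 members. This core was searched on both strands as GAAA, any 2 bases and GAAA, and it was present in 16 of the 30, 53.3%, against 3.46% of 27025 genes. The GAS element was searched as TTC, any 3 bases and GAA, which reads the same on both strands, and it was present in 7 of the 30, 23.3%, against 8.13% of genes. The motifs can overlap, as in the Bst2 window. The stretches printed here hold every ISRE core match in the window of 7 members that were called in at least 1 model. They set those called higher (Oas1g, Oas1a) beside those called lower (Ifit1, Isg15, Igtp, Gbp3, Gbp7). They are given on the strand of the gene, 5′ to 3′, with the matches in capitals, and in Ifit1, Gbp3 and Gbp7 the core reads in reverse complement.
Oas1g (chr5:120887614-120887646, minus strand): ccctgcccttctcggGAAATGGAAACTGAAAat
Oas1a (chr5:120907526-120907560, minus strand): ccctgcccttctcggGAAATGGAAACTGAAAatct
Ifit1 (chr19:34640770-34640828, plus strand): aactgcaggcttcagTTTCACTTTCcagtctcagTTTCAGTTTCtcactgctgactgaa
Isg15 (chr4:156200860-156200911, minus strand): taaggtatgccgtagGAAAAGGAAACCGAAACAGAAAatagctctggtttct
Igtp (chr11:58199507-58199546, plus strand): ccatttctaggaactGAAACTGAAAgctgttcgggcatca
Gbp3 (chr3:142559984-142560029, plus strand): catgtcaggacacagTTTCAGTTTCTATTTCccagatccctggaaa
Gbp7 (chr3:142530268-142530307, plus strand): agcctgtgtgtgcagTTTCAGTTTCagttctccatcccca
All 7 lie upstream of the RefSeq start, and only that of Gbp3 enters an exon of the GENCODE M21 annotation, by 4 bases of Gbp3 itself. The core occurred 3 times in the Isg15 stretch, 2 times in those of Oas1g, Oas1a, Ifit1 and Gbp3, and 1 time in those of Igtp and Gbp7. The Oas1g and Oas1a stretches hold the same letters, save that Oas1a runs further, so they are not separate cases. The windows of 14 of the 30 members, among them Oasl1 and Irf7, held no such core. The matches are a description of letters in these windows, not of binding.

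Among the transcription factors of the pathway, Irf7 passed the test in YAPKO. IRF7 is itself induced by interferon and drives further interferon-alpha transcription. Irf7 was at 30.6, 29.5 and 26.2 TPM in WT (C57BL/6) mice LM75, LM192 and LM193 and at 60.2, 84.7 and 47.3 TPM in YAPKO mice LM74, LM189 and LM191. It was at 43.4, 20.7 and 38.5 TPM in WT (mixed) mice LM226, LM227 and LM230 and at 89.1, 54.6 and 49.0 TPM in YAPKO TAZHET mice LM225, LM250 and LM251. Every knockout liver was above every one of its littermates in TPM, and after scaling this held in YAPKO but not in YAPKO TAZHET. The log2 fold change was 0.74 ± 0.21 (SE, n = 3 per group; adjusted p = 0.0251, limma) in YAPKO, and 0.59 ± 0.28 (adjusted p = 0.138) in YAPKO TAZHET, where it passed without scaling (0.91, adjusted p = 0.0431). The YAPKO call was lost without LM192 (adjusted p = 0.0684) or LM193 (0.0815), and it was kept under 10 of the 14 alternatives. The counting's use of strand is not given in the sources used here, and Irf7 overlaps Phrf1 on the opposite strand, so their reads may not be told apart. Stat2 and Irf9, whose products belong to the ISRE-binding complex, and Irf1 did not pass the test in either model. Their log2 fold changes were -0.27, -0.40 and -0.46 in YAPKO and 0.08, -0.34 and 0.16 in YAPKO TAZHET. Without LM225, Irf9 was at -0.59 ± 0.13 in YAPKO TAZHET and passed (adjusted p = 0.0122). LM225 had the highest Irf9 of that group, at 29.6 TPM, so this is no separate support for a fall.

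Of the sensors of viral nucleic acid, Zbp1, which senses Z-form nucleic acid and can trigger necroptosis, rose in YAPKO. It was between 8.22 and 11.2 TPM in the WT littermates and between 14.6 and 22.03 TPM in YAPKO, with a log2 fold change of 0.54 ± 0.17 (SE, adjusted p = 0.0392). This call was lost without any 1 of LM192, LM193, LM74 and LM189 (adjusted p = 0.0943, 0.127, 0.107 and 0.114). It was kept under 7 of the 14 alternatives. In YAPKO TAZHET the value was 1.04 ± 0.36 (adjusted p = 0.0524), and LM225, at 37.7 TPM, was the highest of all 12 livers. Ifih1 and Dhx58, which encode MDA5 and LGP2 of the RNA helicase family, had positive values in both models (0.27 and 0.35 for Ifih1, 0.25 and 0.13 for Dhx58) and did not pass, although Ifih1 passed in both without scaling (adjusted p = 0.0222 and 0.0157).

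Oasl1 had the largest increase of any called member in each model, and Oas1g also rose in both, while Oas2, Oas3 and Oasl2 passed in neither. OAS proteins make 2′-5′ linked oligoadenylate when they bind double-stranded RNA, which activates RNase L, while OASL1 lacks this activity and is known to restrain Irf7 translation in mice. Oasl1 was at 9.68, 9.86 and 7.60 TPM in WT (C57BL/6) mice LM75, LM192 and LM193 and at 34.0, 41.2 and 33.3 TPM in YAPKO mice LM74, LM189 and LM191. In the other model it was at 12.9, 7.89 and 13.0 TPM in LM226, LM227 and LM230 and at 34.7, 43.4 and 32.2 TPM in LM225, LM250 and LM251. The groups did not come near each other in either model. The mean TPM was 4.0 times that of the littermates in YAPKO and 3.26 times in YAPKO TAZHET. On the log2 scale the change was 1.55 ± 0.15 (SE, adjusted p = 0.000211) and 1.34 ± 0.20 (adjusted p = 0.00182). These calls held when any 1 mouse was left out.

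Oas1g was low in every WT liver, at 1.77, 1.23 and 1.64 TPM in LM75, LM192 and LM193 and at 1.998, 1.41 and 1.25 TPM in LM226, LM227 and LM230. It reached 5.72, 5.24 and 2.83 TPM in YAPKO mice LM74, LM189 and LM191, and 5.22, 3.29 and 4.68 TPM in YAPKO TAZHET mice LM225, LM250 and LM251. No knockout liver overlapped its littermates. The change was 0.84 ± 0.22 (SE, adjusted p = 0.0188) in YAPKO and 0.85 ± 0.17 (adjusted p = 0.00628) in YAPKO TAZHET. The first call was lost without LM192, LM74 or LM189 (adjusted p between 0.0609 and 0.0659), and it was kept under 9 of the 14 alternatives. Oas1a was at 4.48, 7.26 and 2.82 TPM in LM75, LM192 and LM193 and at 11.8, 16.6 and 7.57 TPM in LM74, LM189 and LM191, a change of 0.85 ± 0.33 (adjusted p = 0.077) whose TPM did not overlap. In YAPKO TAZHET it rose, from 5.83, 2.04 and 5.84 TPM in LM226, LM227 and LM230 to 16.8, 11.2 and 10.7 TPM in LM225, LM250 and LM251, by 1.11 ± 0.32 (adjusted p = 0.0272). This call was lost without any 1 of the 3 knockout mice (adjusted p between 0.0567 and 0.0704). The longest annotated transcripts of Oas1a and Oas1g were 97.5% identical over 94.1% or more of their length, so the division of reads between them is uncertain. Oas2, Oas3 and Oasl2 had values between 0.30 and 0.62.

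The IFIT genes, among whose products IFIT1 binds foreign 5′ ends of RNA, gave only lower values among their calls. Ifit1 was at 9.24, 13.7 and 7.33 TPM in LM75, LM192 and LM193 and at 7.61, 9.83 and 2.93 TPM in LM74, LM189 and LM191, which overlapped. In YAPKO TAZHET it fell, from 12.5, 9.28 and 10.6 TPM in LM226, LM227 and LM230 to 8.09, 4.09 and 4.27 TPM in LM225, LM250 and LM251, with no overlap. The log2 fold change was -1.19 ± 0.20 (SE, adjusted p = 0.00331) in YAPKO TAZHET and -0.91 ± 0.36 (adjusted p = 0.0833) in YAPKO. Ifit3 and Ifit3b also fell in YAPKO TAZHET, by 0.59 ± 0.17 and 0.74 ± 0.23 on the log2 scale (adjusted p = 0.0286 and 0.0387), although their TPM as deposited overlapped between groups and without scaling neither passed (adjusted p = 0.258 and 0.189). Both calls were lost without LM226, LM250 or LM251, that of Ifit3 also without LM230 and that of Ifit3b also without LM227 (adjusted p between 0.0576 and 0.119). These 2 genes are 97.8% identical over 84.8% or more of their transcripts and may share reads. Ifit2 was positive in both models, at 0.45 and 0.26, and did not pass, nor did Eif2ak2, which encodes the kinase PKR, at -0.30 and -0.21.

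**Figure D2:**
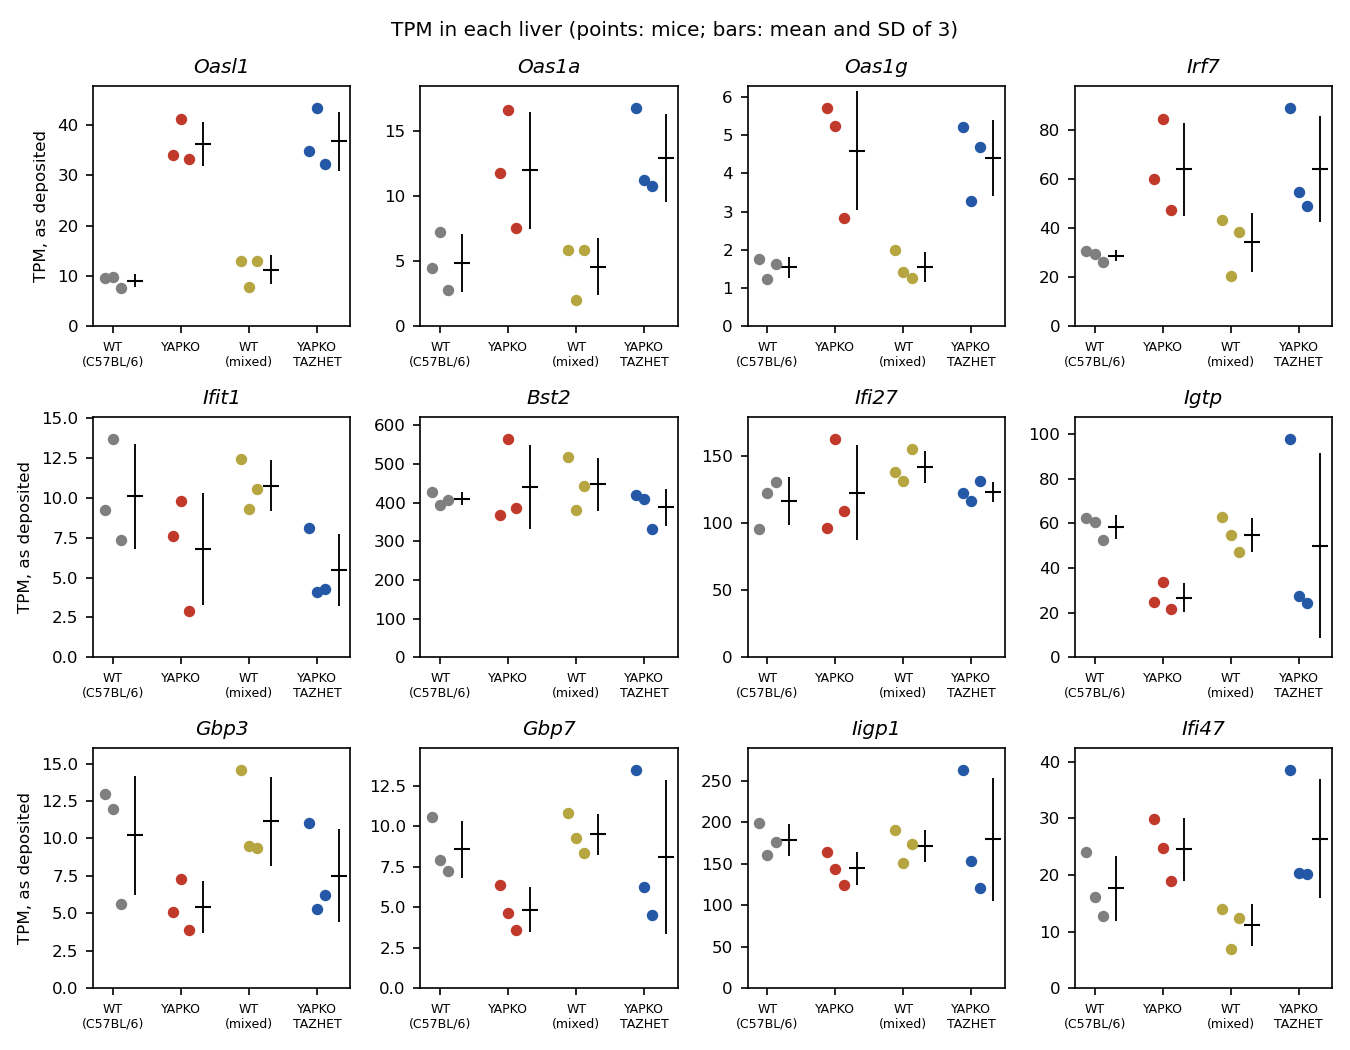
TPM as deposited (y axis, from 0) of 12 members in each of the 12 livers, by group (x axis); points are mice and bars the mean and SD of 3. Oasl1 in both models lies wholly above its littermates, while Igtp lies wholly below them in YAPKO and is split in YAPKO TAZHET, where LM225 is at 97.9 TPM.

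Isg15 encodes a ubiquitin-like protein that is attached to other proteins, and Usp18 the protease that removes it and blunts type I receptor signalling. Isg15 was between 22.1 and 43.0 TPM in WT (C57BL/6), between 18.2 and 53.0 TPM in YAPKO, between 24.4 and 37.1 TPM in WT (mixed) and between 20.5 and 29.8 TPM in YAPKO TAZHET. It fell in YAPKO TAZHET by 0.61 ± 0.18 on the log2 scale (adjusted p = 0.0324), and the groups overlapped in TPM. Without scaling the value was -0.30 (adjusted p = 0.254), and the call was also lost without any 1 of LM226, LM230, LM250 and LM251 (adjusted p between 0.0538 and 0.104). Usp18 was positive in both models, at 0.40 and 0.37, and did not pass.

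The 11 remaining effectors had no shared direction. Per transcript length, Bst2 and Ifi27 were among the 3 most abundant members, with Iigp1. Bst2, or tetherin, holds budding virions at the cell surface. It was at 429, 395 and 408 TPM in LM75, LM192 and LM193, at 369, 565 and 387 TPM in LM74, LM189 and LM191, at 518, 382 and 443 TPM in LM226, LM227 and LM230 and at 421, 411 and 332 TPM in LM225, LM250 and LM251. Ifi27, a small membrane protein gene, was in the same order of mice at 95.9, 123 and 130 TPM, then 96.5, 163 and 109 TPM, then 138, 132 and 155 TPM, and then 122, 116 and 131 TPM. The groups overlapped in TPM for Bst2 in both models and for Ifi27 in YAPKO, and in YAPKO TAZHET the highest Ifi27 value (LM251) was just below the lowest of its littermates (LM227). After scaling both genes fell in YAPKO TAZHET, by 0.53 ± 0.13 and 0.52 ± 0.12 on the log2 scale (adjusted p = 0.015 and 0.0124). Without scaling both values were -0.20 and neither passed (adjusted p = 0.288 and 0.154), and the Bst2 call was also lost without LM251 (adjusted p = 0.0587).

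Ifi27l2a rose in YAPKO TAZHET by 0.74 ± 0.22 (SE, adjusted p = 0.0307) and Trim30a by 0.55 ± 0.17 (adjusted p = 0.0336). Ifi27l2a was between 16.4 and 31.2 TPM in WT (mixed) and between 43.7 and 53.9 TPM in YAPKO TAZHET, and its transcript is 90.7% identical to that of Ifi27l2b over 51.0% of its length. Both calls were lost without any 1 of LM227, LM225, LM250 and LM251, that of Ifi27l2a also without LM226 and that of Trim30a also without LM230 (adjusted p between 0.0535 and 0.0943). Ifi35 fell in YAPKO by 0.38 ± 0.11 (adjusted p = 0.0297) after scaling, with a value of -0.03 without scaling, and the call was lost without any 1 of LM75, LM192, LM74 and LM191 (adjusted p between 0.0623 and 0.104). Rsad2, Cmpk2, Rtp4, Ifi44, Xaf1 and Parp14 did not pass in either model, with values between -0.38 and 0.58.

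After scaling, the median interferon-gamma GTPase was below the littermate mean in 5 of 6 knockout livers, all but LM225. In YAPKO 4 of 7 fell (Igtp, Gbp3, Gbp7 and Iigp1) and none rose, where 17.3% of all genes fell and 18.7% rose, with a median log2 fold change of -0.67 beside -0.03 for all genes. The median stayed negative without scaling, at -0.31 beside 0.28, and with quantile normalization, at -0.38 beside -0.06. In YAPKO TAZHET Gbp3 fell and Ifi47 rose, and the median was -0.33 beside -0.03. It was -0.01 beside 0.25 without scaling and -0.07 beside -0.05 with quantile normalization, so under the latter it was close to that of all genes. The type I response genes had medians of 0.21 and 0.24 beside -0.03 for all genes in each model, with 4 higher and 1 lower of 30 in YAPKO and 5 higher and 6 lower in YAPKO TAZHET (18.7% and 17.3%, and 19.2% and 18.4%, of all genes). Their medians were 0.51 and 0.49 without scaling (0.28 and 0.25 for all genes) and 0.11 and 0.07 with quantile normalization (-0.06 and -0.05). When 1 mouse was left out they lay between 0.01 (without LM193) and 0.40 (without LM191) in YAPKO and between 0.12 (without LM225) and 0.34 (without LM226) in YAPKO TAZHET.

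Igtp, an IRG protein also called Irgm3 that is found on lipid droplets and the endoplasmic reticulum, had the largest decrease among the members in YAPKO. It was at 62.5, 60.4 and 52.4 TPM in LM75, LM192 and LM193 and at 24.7, 34.0 and 21.4 TPM in LM74, LM189 and LM191, with no overlap. In YAPKO TAZHET, LM250 and LM251 were at 27.6 and 24.6 TPM, below the 62.7, 54.8 and 47.3 TPM of LM226, LM227 and LM230, while LM225 was at 97.9 TPM, above them. The change was -1.47 ± 0.18 (SE, adjusted p = 0.000682) in YAPKO and -0.73 ± 0.43 (adjusted p = 0.218) in YAPKO TAZHET. Without LM225 the latter was -1.32 ± 0.12 (adjusted p = 0.000333). That fit takes out the highest value of the group, which by itself lowers the result. It is no separate support for a fall. Igtp overlaps Irgm2 on the same strand, and Irgm2 had values of -0.61 and 0.15 and did not pass.

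Gbp7 and Gbp3 belong to the guanylate-binding proteins. Gbp7 was at 10.6, 7.95 and 7.22 TPM in LM75, LM192 and LM193 and at 6.39, 4.64 and 3.59 TPM in LM74, LM189 and LM191, without overlap, a change of -1.03 ± 0.20 (SE, adjusted p = 0.00503). In the other model it was at 10.9, 9.32 and 8.34 TPM in LM226, LM227 and LM230 and at 13.5, 6.23 and 4.54 TPM in LM225, LM250 and LM251, so LM225 was again the highest. The change was -0.61 ± 0.29 (adjusted p = 0.13), and -0.97 ± 0.15 (adjusted p = 0.00303) without LM225. The second fit takes out the highest value of the group, so it is no separate support for a fall. Gbp3 was at 13.0, 12 and 5.63 TPM in LM75, LM192 and LM193 and at 5.09, 7.33 and 3.89 TPM in LM74, LM189 and LM191. It was at 14.6, 9.49 and 9.34 TPM in LM226, LM227 and LM230 and at 11.04, 5.26 and 6.25 TPM in LM225, LM250 and LM251. These TPM overlapped in both models through LM193 and LM225. Gbp3 fell in both, by 1.07 ± 0.32 (adjusted p = 0.0307) and 0.83 ± 0.23 (adjusted p = 0.0251) on the log2 scale. The first call was lost without any 1 of LM75, LM192, LM74 and LM191 (adjusted p between 0.0855 and 0.0969) and the second without LM226, LM250 or LM251 (0.078 to 0.081), and without scaling neither passed (0.0777 and 0.136).

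Iigp1, the most abundant IRG member, was at 199, 161 and 176 TPM in LM75, LM192 and LM193 and at 164, 144 and 125 TPM in LM74, LM189 and LM191. It was at 190, 152 and 174 TPM in LM226, LM227 and LM230 and at 263, 154 and 121 TPM in LM225, LM250 and LM251. After scaling it fell in YAPKO by 0.67 ± 0.13 on the log2 scale (adjusted p = 0.00542), but in TPM LM74 was above LM192 and without scaling the value was -0.31 (adjusted p = 0.0785). In YAPKO TAZHET it was -0.33 ± 0.23 (adjusted p = 0.292), and -0.61 without LM225, the highest of that group. The latter passed but is no separate support for a fall. Ifi47 went the other way. It was at 24.0, 16.1 and 12.8 TPM in LM75, LM192 and LM193, at 29.9, 24.8 and 18.9 TPM in LM74, LM189 and LM191, at 13.99, 6.99 and 12.4 TPM in LM226, LM227 and LM230 and at 38.5, 20.4 and 20.2 TPM in LM225, LM250 and LM251. Only in YAPKO TAZHET did the groups stand apart, and there Ifi47 rose by 0.86 ± 0.28 (adjusted p = 0.0451). This call was lost whichever of the 6 mice was left out (adjusted p between 0.0557 and 0.117: 0.0557 without LM226, 0.117 without LM227, 0.0571 without LM230, 0.1 without LM225, 0.0588 without LM250 and 0.0642 without LM251). Gbp2 and Irgm1 did not pass, with values of 0.04 and -0.45 in YAPKO and 0.05 and -0.22 in YAPKO TAZHET, nor did Tap1, which carries peptides to MHC class I, at -0.28 and -0.10.

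**Figure D3:**
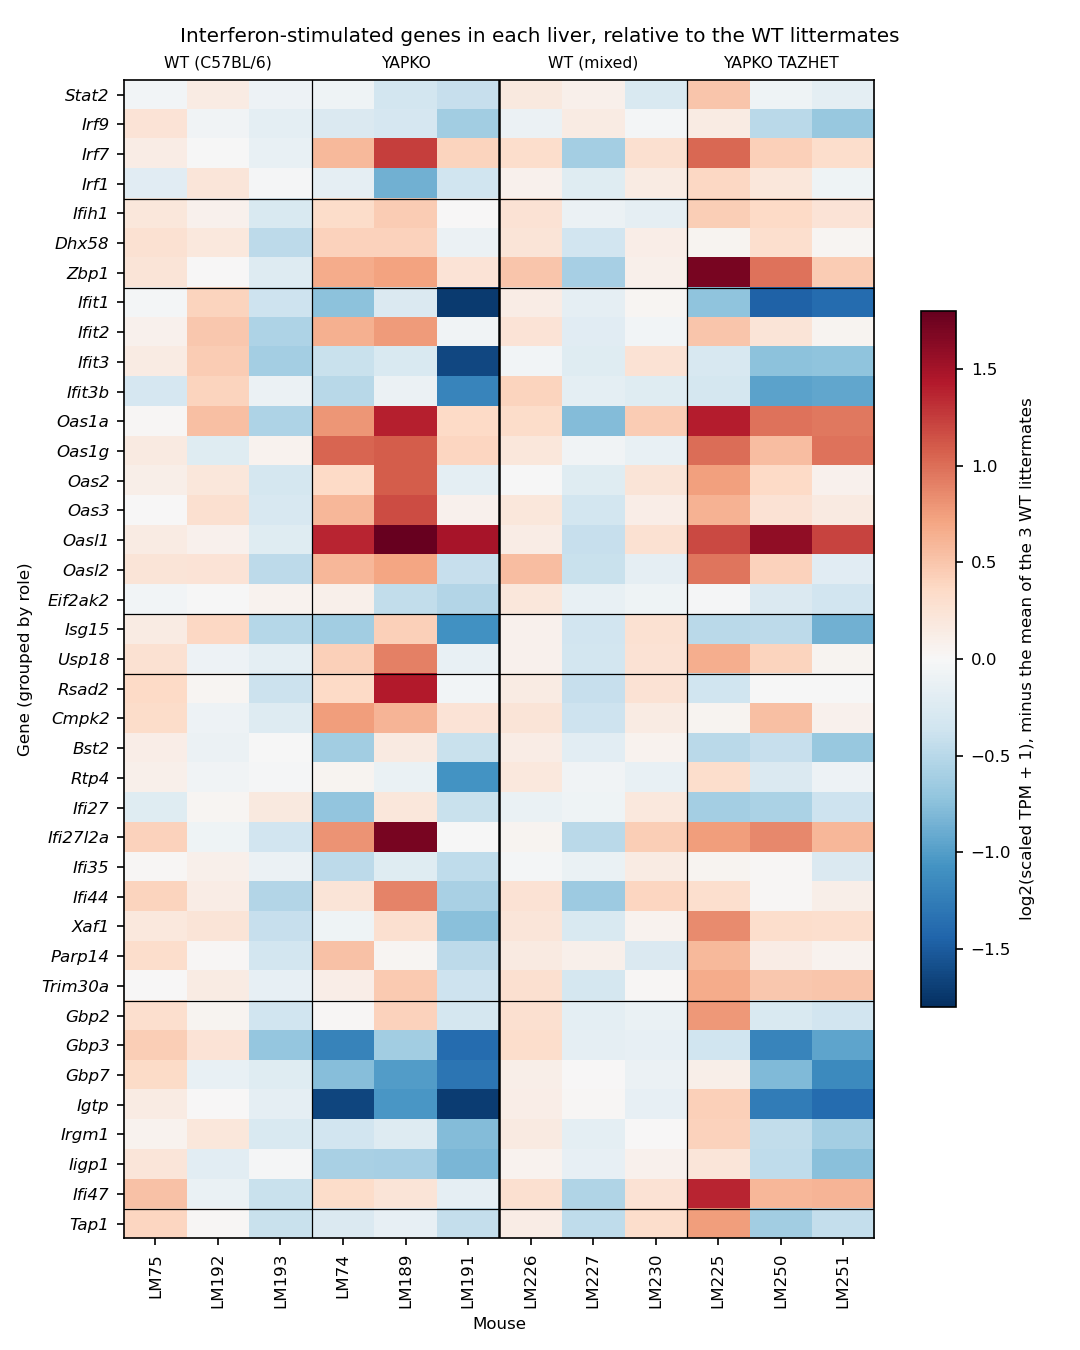
Level of the 39 members (rows, grouped by role) in each of the 12 livers (columns) as log2(scaled TPM + 1) minus the mean of the 3 WT littermates; red is higher and blue lower. Oasl1 is red in all 6 knockout livers, Igtp is blue in 5 of them, and LM225 stands apart from LM250 and LM251 across the GTPases.

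Mice of 1 knockout group differed from each other over many members at once. In YAPKO TAZHET, LM225 was the highest of the 3 for 31 of 39 members and for 7 of 7 GTPases on the scaled scale (33 and 7 in TPM). Its GTPases had a median of 0.41 above the littermate mean on the log2 scale, while those of LM250 and LM251 had medians of -0.45 and -0.76. In YAPKO, LM191 was the lowest of the 3 for 34 of 39 members, including 7 of 7 GTPases. The median type I response gene was at -0.38 in LM191, against 0.35 in LM74 and 0.47 in LM189. WT mice also ranked alike over members: LM193 was lowest for 31 of 39 and LM227 for 29 of 39.

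Without LM225, 14 members were called in YAPKO TAZHET, 2 higher and 12 lower, and 5 of 7 GTPases were lower (Gbp3, Gbp7, Igtp, Irgm1 and Iigp1), while 6 higher and 7 lower were called with it. Of all genes 37.3% were called in that fit, in either direction, and the share called lower alone is not given here. LM225 was the highest of the 3 for 7 of 7 GTPases, so this fit takes out their highest value in that group. Without LM191, 12 members were called in YAPKO, 9 higher and 3 lower, in place of 4 and 5, where 30.1% of all genes were called. Without LM189 the count was 10, with 2 higher and 8 lower, where 29.5% of all genes were called. Counts were lower, at 5, without LM192 in YAPKO (27.0% of all genes) and without LM250 or LM251 in YAPKO TAZHET (28.1% and 26.4%). Beside these values, monocyte and neutrophil markers summed to 67.4 TPM over 6 genes in LM225, against 20.6 and 29.0 TPM in LM250 and LM251, and T and NK cell markers to 11.7 TPM over 8 genes, against 6.80 and 8.002 TPM. Kupffer cell and macrophage markers were lowest of the 3 in LM225, at 759 TPM over 7 genes, against 900 and 957 TPM. Leukocyte markers did not set LM225 apart, at 121.7 TPM against 107.2 and 122.4 TPM. In LM191 leukocyte and macrophage sums were the lowest of the YAPKO livers (88.2 and 490 TPM, against 111 to 137 and 571 to 771 TPM). So was its T and NK cell sum (5.05 TPM, against 7.94 in LM74 and 14.3 in LM189). Its monocyte and neutrophil sum was not (58.0 TPM, against 68.5 in LM74 and 56.8 in LM189). The part of these cell types in the differences between mice was not tested.

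**Figure D4:**
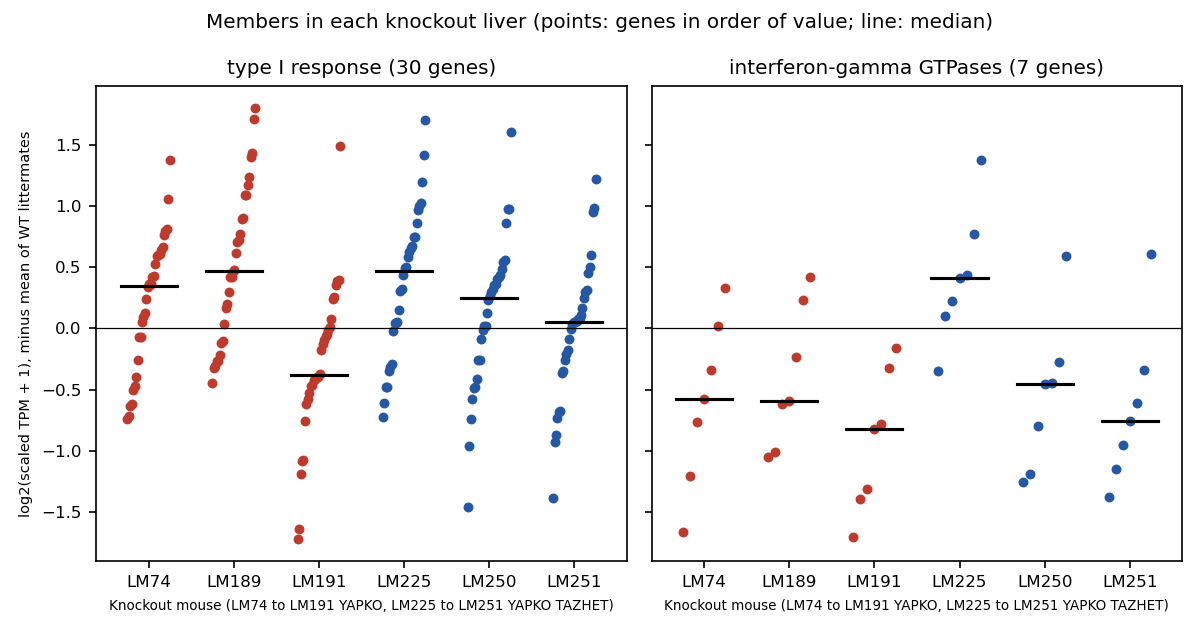
Each point is 1 member in 1 knockout liver (x axis), as log2(scaled TPM + 1) minus the mean of the WT littermates (y axis), for 30 type I response genes and 7 interferon-gamma GTPases; lines are medians. The GTPase median is below 0 in 5 livers and 0.41 in LM225.

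No member differed between the models at the adjusted threshold. The change in YAPKO minus that in YAPKO TAZHET, tested over 12 livers with limma, gave 0 of 39 members called, against 0.0576% of all genes, with an adjusted p of 0.999 or more. At an unadjusted p under 0.05 there was 1 of 39, Irf1, with a difference of -0.63, against 4.56% of all genes. For Igtp the difference was -0.75 ± 0.52 (SE, adjusted p = 0.999, limma), and -0.17 ± 0.24 (adjusted p = 0.926) without LM225. For Irf7 it was 0.14 and for Ifi47 -0.73 (both adjusted p = 0.999). All 7 GTPases had a negative difference, with a median of -0.35, or -0.30 with 6 of 7 negative without scaling. The shared sign did not hold without LM225, where Gbp2 was at 0.34 and Irgm1 at 0.07. The others were then at -0.01 (Gbp3), -0.07 (Gbp7), -0.07 (Iigp1), -0.17 (Igtp) and -0.47 (Ifi47). A p that misses the threshold does not show that the models act alike. Across members the 2 log2 fold changes had the same sign in 35 of 39, with Pearson's r = 0.861 and Spearman's rho = 0.855. Over all 12159 genes the sign was the same in 10271, with r = 0.92 and rho = 0.866. This is a description across genes, which share libraries and are not independent replicates. The WT groups gave 0 of 39 called (limma; 0.173% of all genes). At an unadjusted p under 0.05 there were 2 of 39, Ifi35 and Ifi47, which differed by -0.28 and -0.68 (WT (mixed) minus WT (C57BL/6)), against 5.82% of all genes.

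Transcripts of interferons themselves were scarce. Of 21 ligand genes in the tables, 17 were listed at 0 in all 12 livers, and none met the filter. Ifng was listed at 0.218 TPM in LM225, 0.105 TPM in LM251 and 0.0761 TPM in LM189 and at 0 in the other 9 livers. Ifnb1 was listed at 0.159 TPM in LM250 alone. Ifnk and Ifnz did not exceed 0.142 TPM.

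Receptor genes were among those that rose. Of 9 receptor and kinase genes, 4 rose and none fell in each model, and the same 4 in both. For this list and those that follow, 18.7% of all genes rose and 17.3% fell in YAPKO, 19.2% and 18.4% in YAPKO TAZHET, and 14.9% rose in both. Ifnlr1, the chain specific to the lambda interferon receptor, had a mean of 0.0446 TPM in WT (C57BL/6) and 1.81 TPM in YAPKO, and rose by 1.29 ± 0.17 (SE, adjusted p = 0.000929) and 1.57 ± 0.16 (adjusted p = 0.000325). It was below 1 TPM in every WT liver and so met the filter through the knockout livers alone, which favoured a rise in it. The same held for Ciita, Ccr2 and Itgam among the genes counted in the lists. Il10rb, the partner chain of Ifnlr1, rose by 1.0 ± 0.15 and 0.91 ± 0.15, Ifngr1 by 1.06 ± 0.12 and 1.06 ± 0.14, and Ifngr2 by 0.59 ± 0.13 and 0.72 ± 0.12. Ifnar1 and Ifnar2, the type I receptor, had values of 0.26 and 0.00 in YAPKO and 0.15 and 0.12 in YAPKO TAZHET and did not pass, nor did Jak1, Jak2 or Tyk2. Without scaling 9 of 9 genes of this list were called higher in YAPKO and 8 of 9, all but Jak2, in YAPKO TAZHET, where 36.9% and 34.5% of all genes were.

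Of 5 other STAT and IRF genes described, 2 rose in each model and 1 fell in YAPKO TAZHET. Stat3, which relays IL-6 signals, rose by 0.58 ± 0.12 and 0.60 ± 0.15, and Irf8, a factor of macrophages and dendritic cells, by 1.06 ± 0.16 and 0.80 ± 0.18. Irf3 fell in YAPKO TAZHET by 0.48 ± 0.12 (adjusted p = 0.0156), and without scaling it was at -0.17 (adjusted p = 0.314).

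Of 6 negative regulators tested, 2 rose in each model. Socs3, which is induced by STAT3 and inhibits JAK kinases, rose most, at 3.71, 6.19 and 6.21 TPM in LM75, LM192 and LM193 against 40.1, 46.1 and 54.7 TPM in LM74, LM189 and LM191, and at 5.23, 3.02 and 6.47 TPM in LM226, LM227 and LM230 against 53.5, 22.9 and 22.1 TPM in LM225, LM250 and LM251. The change was 2.60 ± 0.20 (adjusted p = 6.96e-05) and 2.15 ± 0.34 (adjusted p = 0.00237). Ptpn6 (SHP-1) rose by 0.40 ± 0.13 and 0.35 ± 0.10. Among 9 sensors and adaptors tested, 4 rose and 1 fell in each model. Ikbke, a kinase that activates IRF3 and IRF7, rose by 0.97 ± 0.12 and 1.49 ± 0.26 and Tlr7, a sensor of single-stranded RNA, by 0.79 ± 0.20 and 0.64 ± 0.21. Tmem173 (STING) rose in YAPKO TAZHET by 1.16 ± 0.23. Mavs, the adaptor of the RNA helicases, fell by 0.69 ± 0.09 and 0.77 ± 0.11.

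Among 22 other genes known to respond to type I interferon, 4 rose and 1 fell in YAPKO and 4 rose and none fell in YAPKO TAZHET, with medians of 0.06 and 0.14 beside -0.03. The shares that rose were near those of all genes. Ly6e, a membrane protein of the Ly6 family, changed most, from a mean of 223.5 TPM in WT (C57BL/6) to 1221 TPM in YAPKO and from 244 TPM in WT (mixed) to 1305 TPM in YAPKO TAZHET, changes of 2.11 ± 0.16 and 2.13 ± 0.20 (adjusted p = 6.97e-05 and 0.000252). Lgals3bp rose by 0.79 ± 0.16 and 0.59 ± 0.12, and Sp110 in YAPKO by 0.68 ± 0.14.

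The other GBP and IRG genes, 11 in all, were called in both directions: 1 rose and 3 fell in YAPKO, and 2 rose and 1 fell in YAPKO TAZHET. Their median was -0.43 in YAPKO, with 8 of 11 negative. In YAPKO TAZHET it was 0.15, with 4 of 11 negative, beside -0.03 for all genes in each. Gbp8 rose by 1.35 ± 0.17 and 2.18 ± 0.17, and Gbp9 in YAPKO TAZHET by 0.81 ± 0.21. Gbp10 fell by 2.06 ± 0.29 and 1.8 ± 0.36 on the log2 scale, and Gbp11 in YAPKO by 2.28 ± 0.41. In YAPKO TAZHET Gbp11 was at -0.63 ± 0.43 (adjusted p = 0.283), and without LM225 at -1.14 ± 0.26 (adjusted p = 0.0138). LM225 had high values of the GTPases, so the value without it is no separate support for a fall. Gbp8, Gbp10 and Gbp11 hold stretches more than 90% identical to other Gbp genes, so how their reads were divided is uncertain. Tgtp1 was at 59.3 TPM in LM225, against 3.91 and 5.96 TPM in LM250 and LM251 and 2.90 to 8.04 TPM in the WT livers, and it is 99.8% identical to Tgtp2. Of 11 other interferon-gamma responsive genes tested, 1 rose and 3 fell in YAPKO and 2 rose and none fell in YAPKO TAZHET. The chemokine gene Cxcl10 rose by 1.22 ± 0.17 and 0.73 ± 0.19, and Cxcl11 fell in YAPKO by 0.94 ± 0.18. Ciita, the master factor of MHC class II, rose in YAPKO TAZHET by 0.91 ± 0.23, having met the filter through the knockout livers alone. Psmb9, an immunoproteasome subunit, fell in YAPKO by 0.66 ± 0.19, and without scaling it was at -0.31 (adjusted p = 0.207).

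**Figure D5:**
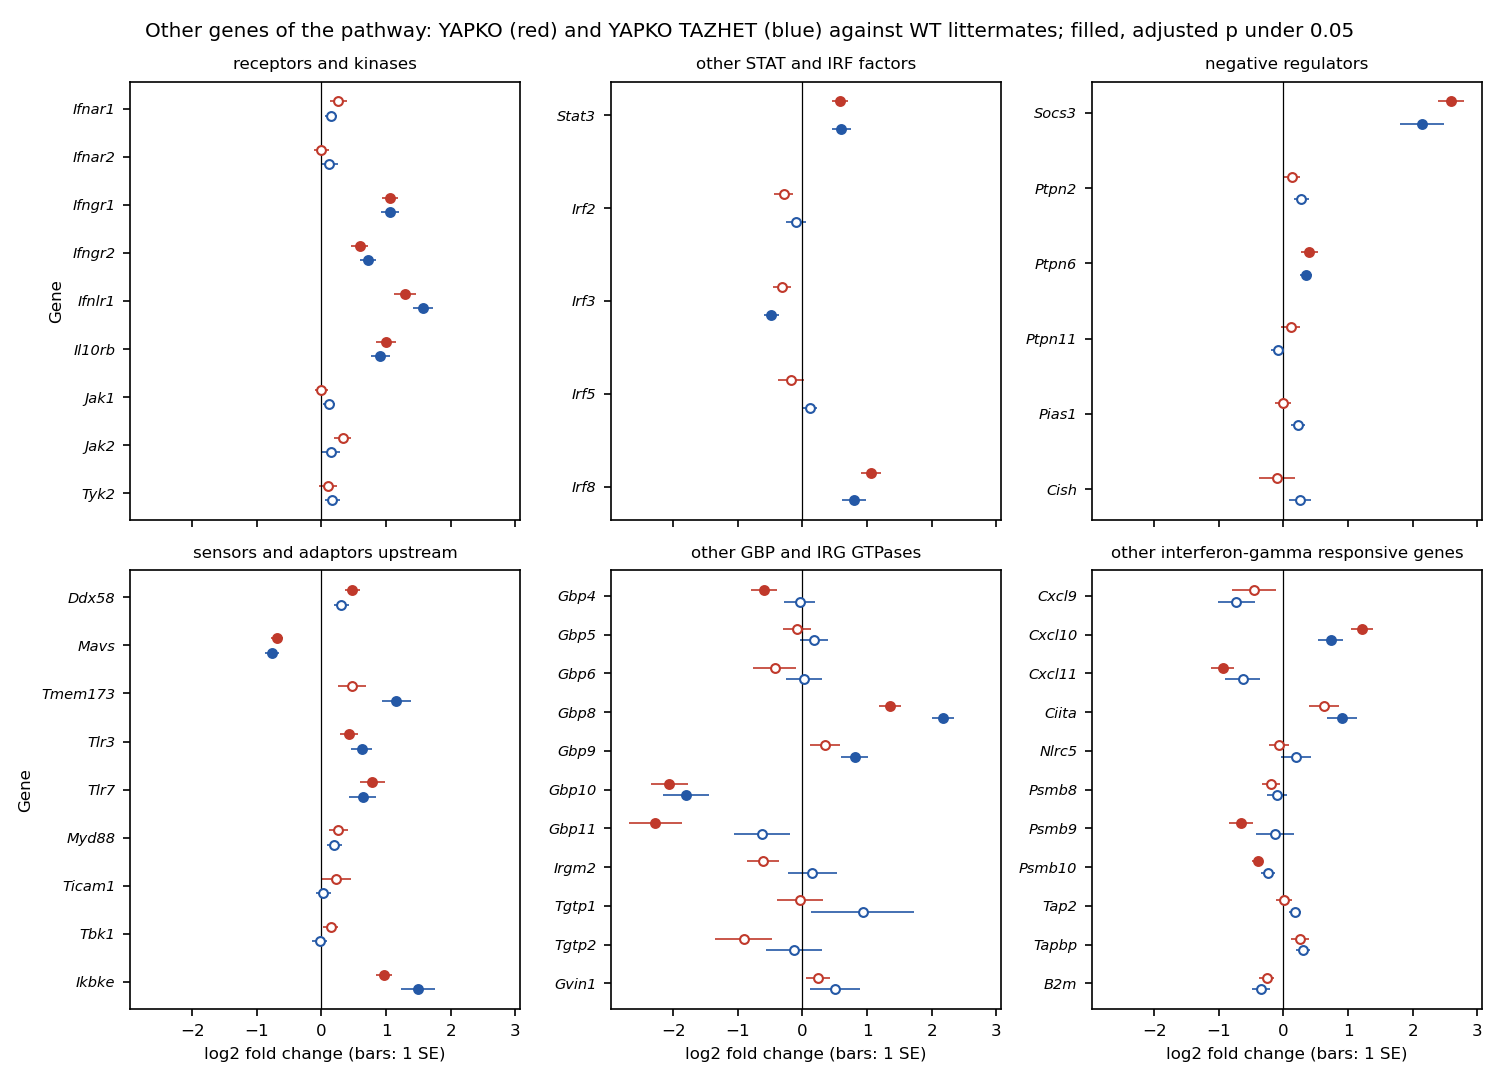
Log2 fold change (x axis, bars 1 SE) of other genes of the interferon pathways (y axis) in YAPKO (red) and YAPKO TAZHET (blue) livers against 3 WT littermates each; filled points passed an adjusted p of 0.05. Ifngr1, Ifngr2, Ifnlr1, Il10rb and Socs3 lie to the right of 0 in both models, and Gbp10 and Mavs to the left.

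Markers of immune cells moved with the genotype. In whole liver, fewer cells of a type and less RNA per cell cannot be told apart. Leukocyte markers rose for 4 of 4 genes in each model, and their summed level was 31.0 to 37.2 TPM in WT (C57BL/6), 88.2 to 137 TPM in YAPKO, 30.3 to 44.3 TPM in WT (mixed) and 107 to 122 TPM in YAPKO TAZHET. Kupffer cell and macrophage markers rose for 6 of 7 in each model, all but Timd4, with sums of 210 to 261, 490 to 771, 188 to 400 and 759 to 957 TPM in the same order. Monocyte and neutrophil markers rose for 6 of 6 and 4 of 6, with sums of 12.6 to 15.8, 56.8 to 68.5, 7.15 to 11.9 and 20.6 to 67.4 TPM. Ccr2 and Itgam of this list met the filter through the knockout livers alone, which favoured a rise in them. T and NK cell markers stayed low, with sums of 5.23 to 7.71, 5.05 to 14.3, 4.29 to 6.37 and 6.80 to 11.7 TPM over 8 genes, of which 4 were tested and 1, Cd3g, rose, in YAPKO TAZHET. B cell markers summed to 8.30 TPM at most with no call, and those of plasmacytoid dendritic cells, the main makers of interferon-alpha, to 4.196 TPM at most, with none tested. No marker of these lists was at 0 in all 12 livers. Endothelial markers fell for 2 of 6 in each model and rose for none and 1, and hepatocyte markers fell for 3 and 2 of 5. The part of cell makeup in the members' changes was not tested.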

How the data were processed

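RNA from frozen whole liver of 12 female mice was sequenced (paired-end, NovaSeq). Per the study's methods, the authors aligned and counted the reads in CLC Genomics Workbench against GRCm38.p6, and the deposited values are TPM per gene in 2 tables, 1 per model. TPM sums to 1000000 in each liver, keeps no depth and takes no count test. The tables also hold the authors' own comparison columns (fold changes, p-values), which were not used.

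TPM of the libraries in each comparison were scaled by an unweighted trimmed mean of log ratios (30% of ratios and 5% of levels trimmed from each end), filtered at 1 TPM in 3 of 12 livers, and tested as log2(scaled TPM + 1) with limma 3.58.1 in R 4.3.3 (trend, Benjamini-Hochberg, 0.05). A fold change on this scale understates that of low genes. The model comparisons used 6 libraries each and their difference 12. An exact permutation test of 3 against 3 cannot go below p = 0.1. The procedure was run on simulated data with far fewer changed genes than were called here, which leaves the scaling in such data untested. Labels name separate mice as replicates, and no libraries were identical.

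The members, the lists and the tests were chosen with earlier results of these data known. Values per mouse are given for the 3 most abundant members and the 6 largest called changes in each model. Non-members named are up to 4 called genes per list with the largest changes, and the ligands. A further gene of that rule is not reported here. Yap1, Wwtr1, Tgtp1, Irgm2 and the members and markers named without a call were added after their values were seen, as were the motif search, the stretches printed and the checks of near-identical transcripts (blastn 2.17.0, at least 90% identity over 30% of the longest transcript) and overlapping genes. Alternatives were another pseudocount (0.1), filters, scalings, 1 joint fit, robust shrinkage and leaving out each mouse.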

Additional observations from a re-analysis of the deposited data

How the results depend on the processing

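The count of members called was recomputed under 14 alternatives in each model. In YAPKO, with 9 in the main analysis, it was 5 with no filter and 5 with quantile normalization, and between 5 (without LM192) and 12 (without LM191) when 1 mouse was left out. In YAPKO TAZHET, with 13, it was 5 with no filter and 8 with all 12 libraries in 1 fit, and between 5 (without LM250 or LM251) and 14 (without LM225). The share of all genes called with no filter or in the joint fit is not given here. Those counts can therefore not be read as particular to the members. The cause of these shifts was not tested, save that with no filter more genes enter the adjustment. No called member changed direction under any alternative, and the count of called members was 0 under every alternative when the models' changes, or the WT groups, were compared with each other. No paired analysis was possible because the labels number mice individually and share no replicate number between groups. The limits are 3 mice per group, a depth per liver that TPM does not keep, and a split of higher and lower calls that moves with the scaling.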
